A study of Homo sapiens with 6 samples.

Results

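JAK2 and 9 of its neighbours on 9p24, the outer part of the short arm of chromosome 9, were examined in K562 cells that had become resistant to the folate antagonist methotrexate (MTX) and in the parental cells. The members were RCL1, CDC37L1, AK3, UHRF2, KDM4C, RANBP6, ERMP1, RIC1 and DMAC1 beside JAK2, genes that lie around the glycine decarboxylase gene GLDC, and every probe set annotated to a member was taken. This gave 25 probe sets of the 54675 on the array, and 10 genes of the 19775 named by probe sets with a single gene. The genes were picked with the difference between resistant and parental cells already known, so their differences are given as a description and no test of them is reported as a result. In the RefSeq gene order the 10 genes ran CDC37L1, AK3, RCL1, JAK2, RIC1, ERMP1, RANBP6, UHRF2, KDM4C and DMAC1, with GLDC between UHRF2 and KDM4C.

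K562 is an established cell line with erythroid features, derived from a human chronic myeloid leukaemia in its blast phase. Resistant cells had been selected by stepwise exposure to MTX, were able to grow at the drug level that the labels write as 10e-5M, and were kept in medium that lacked glycine, hypoxanthine and thymidine, with dialysed serum. Parental cells were sensitive to MTX and grew in Ham's F12 medium with fetal bovine serum, so the effects of resistance and of the medium cannot be told apart. RNA of each group was hybridised to 3 HG-U133 Plus 2.0 arrays, and neither separate cultures nor cloning of the resistant cells was stated, so that errors and p-values measure the spread between these samples. Every signal was divided by the median signal of its array, and a level is therefore given in array medians. In such bulk RNA, a difference in the number of cells that express a gene and a difference in RNA per cell cannot be told apart.

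JAK2 is a tyrosine kinase bound to the inner part of cytokine receptors, among them the receptor of erythropoietin, and it phosphorylates STAT transcription factors once a cytokine has bound. In chronic myeloid leukaemia cells the BCR-ABL1 fusion kinase drives STAT5 as well. The neighbours share a stretch of chromosome and not a pathway. They act in ribosome assembly, protein folding, nucleotide exchange, chromatin, nuclear import and the function of the endoplasmic reticulum, the Golgi apparatus and mitochondria.

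The 250 bases before the start of the gene are shown for UHRF2, RANBP6, RCL1 and JAK2, the 4 members with the largest differences, to let their promoters be read side by side. They are RefSeq sequences of GRCh38.p14, written 5′ to 3′ on the strand of the gene, with capitals marking GC boxes (GGGCGG or its complement CCGCCC). For JAK2, with 4 starts in the table, the window before the most upstream start is given.
JAK2 promoter, chr9:4984140-4984389, plus strand: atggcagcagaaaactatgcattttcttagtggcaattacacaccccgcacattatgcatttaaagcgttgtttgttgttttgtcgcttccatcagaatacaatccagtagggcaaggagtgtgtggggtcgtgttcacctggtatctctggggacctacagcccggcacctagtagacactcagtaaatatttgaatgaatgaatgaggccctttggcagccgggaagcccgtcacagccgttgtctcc
RCL1 promoter, chr9:4792694-4792943, plus strand: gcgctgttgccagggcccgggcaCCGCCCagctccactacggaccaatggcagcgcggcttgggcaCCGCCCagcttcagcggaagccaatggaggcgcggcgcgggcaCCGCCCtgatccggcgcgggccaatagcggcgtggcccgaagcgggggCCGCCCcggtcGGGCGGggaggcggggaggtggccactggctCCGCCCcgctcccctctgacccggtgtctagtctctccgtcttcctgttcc
UHRF2 promoter, chr9:6412949-6413198, plus strand: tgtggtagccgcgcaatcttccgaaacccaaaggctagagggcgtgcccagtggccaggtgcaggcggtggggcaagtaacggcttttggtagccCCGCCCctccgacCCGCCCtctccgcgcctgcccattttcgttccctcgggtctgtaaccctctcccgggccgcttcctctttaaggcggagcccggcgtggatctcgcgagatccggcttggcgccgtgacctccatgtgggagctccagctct
RANBP6 promoter, chr9:6015625-6015874, minus strand: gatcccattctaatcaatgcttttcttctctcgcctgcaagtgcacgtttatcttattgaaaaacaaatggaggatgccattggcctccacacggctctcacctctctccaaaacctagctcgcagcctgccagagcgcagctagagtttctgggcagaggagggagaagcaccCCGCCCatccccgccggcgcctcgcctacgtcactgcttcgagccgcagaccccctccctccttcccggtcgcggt
The JAK2 window held 0 GC boxes and 8 CpG dinucleotides, against 6 boxes and 29 CpG in RCL1, 2 and 23 in UHRF2, and 1 and 16 in RANBP6. This contrast turned on the start chosen for JAK2, since the windows before its other 3 starts held 36, 22 and 10 CpG and 1 of them held a GC box. AK3 had 2 starts, and the most upstream was taken for it too. Promoters of 9 of the 10 members were matched by symbol, CDC37L1 being the exception. Searched on both strands, GGGCGG was present in 6 of the 9 windows and in 42.6% of all 35114 windows of this length in the table, and CCAAT in 3 of the 9 and in 32.0% of all. The GATA letters AGATAA were found in 1 window, that of RANBP6, and in 9.2% of all. TATAAA was found in 1 window, that of AK3, and in 10.7% of all. TTCNNNGAA, the letters that STAT factors are known to bind, matched 0 of the 9 windows and 6.6% of all, although it was present before 1 of the starts of AK3. The windows held 8 to 32 CpG, and 7 of the 9 were at or above the median of all promoters, 11 CpG. The windows below it were those of JAK2 and AK3, and before other starts these genes reached 36 and 37 CpG. The shares and the median over all windows counted every start of a gene, whereas 1 start was taken for each member. These matches describe the letters of the windows and no binding was measured.

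All 10 genes had a higher mean level in resistant cells, with log2 differences of 0.42 to 1.25 and a median of 0.82, which is a 1.76-fold difference. For 9 of the 10 genes the 3 resistant arrays all lay above the 3 parental arrays, and CDC37L1 was the exception. Each gene was read by the brightest of its tested probe sets (by mean log2 level), and a probe set was tested where it averaged at least 1 array median over the 6 arrays. Over all 11810 genes tested, the median log2 difference was 0.02, 51.4% of genes were higher in resistant cells, and 22.4% had a difference at or above the smallest among the 10. Groups that did not overlap were found in 16.1% of all genes with resistant cells higher and in 14.2% with resistant cells lower. No significance is read from these counts, as the members were chosen on this contrast.

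**Figure D1:**
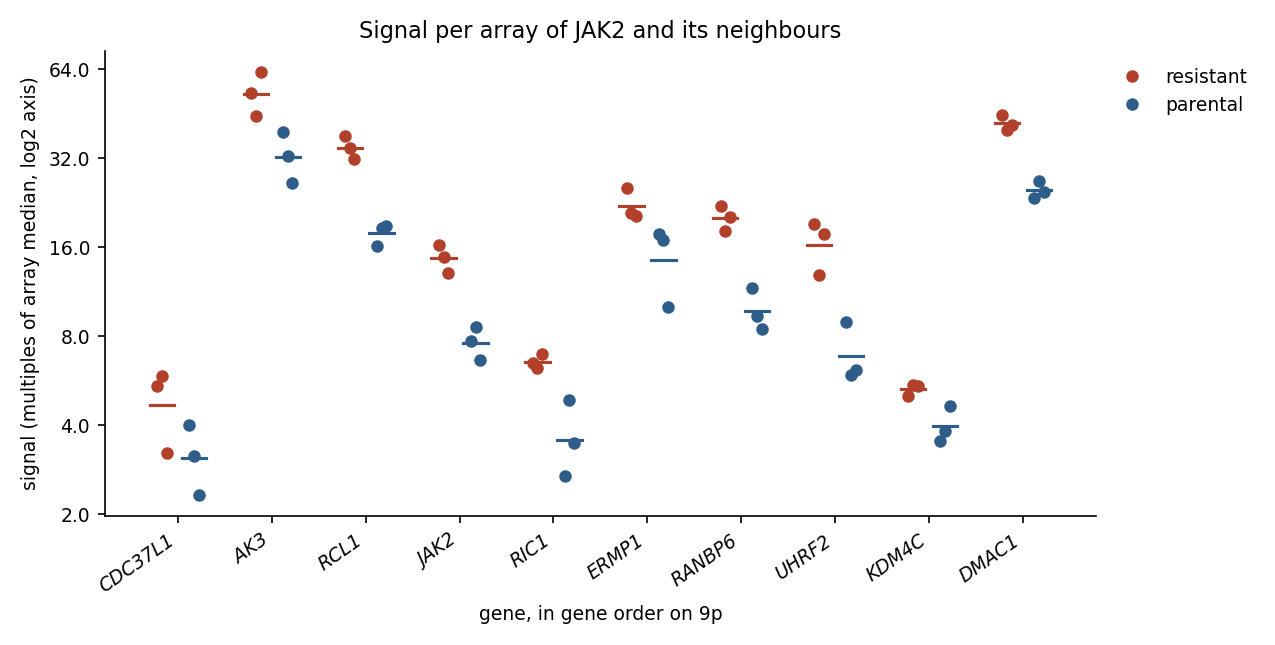
Signal of JAK2 and its 9 neighbours in each of the 3 resistant arrays (red, left of each pair) and the 3 parental arrays (blue), in array medians on a log2 axis, with the genes in their order on 9p. Bars are geometric means, and only the CDC37L1 groups overlap.

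JAK2 was read by 3 probe sets. The brightest, 205842_s_at, had levels of 16.3, 14.9 and 13.1 array medians in resistant cells, against 7.71, 8.58 and 6.66 in parental cells. The groups were well apart, with means of 14.8 ± 1.56 and 7.65 ± 0.961 array medians (SD, n = 3 each), and the log2 difference was 0.95 (SE 0.215), a 1.93-fold higher level in resistant cells. Probe set 205841_at had 6.42, 5.06 and 3.56 array medians in resistant cells, against 3.71, 2.79 and 2.39 in parental cells. Here the lowest resistant array lay below the highest parental array, and the log2 difference was 0.74 (SE 0.305). Probe set 1562031_at was the dimmest, with 3.66, 3.19 and 1.87 array medians in resistant cells, against 1.45, 0.855 and 1.17 in parental cells. These groups did not overlap, and the log2 difference was 1.31 (SE 0.343). The 3 probe sets thus lay on the same side of 0, and the suffix of the brightest marks a design that can match more than 1 transcript.

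Of the nuclear members, UHRF2 encodes a ubiquitin ligase that binds modified cytosines in DNA. Its only probe set, 225610_at, had 19.2, 12.9 and 17.7 array medians in resistant cells, against 8.97, 5.90 and 6.16 in parental cells. The groups did not overlap, and the log2 difference of 1.25 (SE 0.275), or 2.38-fold, was the largest of the 10 representative probe sets.

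KDM4C encodes a demethylase of histone lysines. It had 5.04, 5.48 and 5.43 array medians in resistant cells, against 3.55, 3.84 and 4.65 in parental cells by probe set 209984_at. The resistant arrays lay close together and above all parental arrays, yet the log2 difference was the smallest of the 10, at 0.42 (SE 0.209). The other 3 probe sets of KDM4C averaged below 1 array median and differed in sign, with log2 differences of -1.23, -0.25 and 1.09 and standard errors of 0.995, 0.623 and 0.932. At such signals the direction of KDM4C rests on 209984_at alone.

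RANBP6 belongs to the importin beta family of nuclear transport receptors. It had 22.2, 18.1 and 20.3 array medians in resistant cells, against 11.7, 9.38 and 8.45 in parental cells by its only probe set, 213019_at. The groups did not overlap, and the log2 difference was 1.05 (SE 0.225), or 2.07-fold.

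RCL1 is known in yeast for a part in processing the RNA of the small ribosomal subunit. Probe set 222666_s_at had 37.97, 34.7 and 31.9 array medians in resistant cells, against 16.2, 18.6 and 18.9 in parental cells. The groups were clearly separate, and the log2 difference was 0.96 (SE 0.202), or 1.95-fold. A second probe set, 218544_s_at, was 0.68 higher on the log2 scale (SE 0.209), with 21.7, 20.3 and 22.7 array medians in resistant cells and 15.5, 12.98 and 11.96 in parental cells. The third, 233981_at, averaged below 1 array median, and its log2 difference of 1.10 had a standard error of 1.12.

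CDC37L1 encodes a relative of the HSP90 co-chaperone CDC37. Its brightest probe set, 219343_at, had 5.43, 5.87 and 3.24 array medians in resistant cells, against 4.03, 3.16 and 2.32 in parental cells. Resistant 3 lay below parental 1, and the log2 difference was 0.60 (SE 0.333). Probe set 228561_at was 0.98 higher on the log2 scale (SE 0.331) and its groups did not overlap, with 1.83 to 3.48 array medians in resistant cells and 1.00 to 1.62 in parental cells. Probe set 235787_at had the largest log2 difference of all 25 probe sets, 2.44 (SE 0.840). It stood at 1.36 to 2.41 array medians in resistant cells and at 0.0787 to 0.776 in parental cells, where a signal lies in the range of background.

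AK3 is a mitochondrial nucleotide kinase that transfers phosphate from GTP to AMP, and DMAC1 takes part in the assembly of respiratory complex I. AK3 had 53.3, 44.5 and 62.8 array medians in resistant cells, against 39.3, 32.6 and 26.4 in parental cells by probe set 224655_at. The groups did not overlap, although the arrays of each group were spread widely, and the log2 difference was 0.71 (SE 0.253). By 224151_s_at the log2 difference of AK3 was 0.40 (SE 0.216), with 7.47, 5.62 and 5.69 array medians in resistant cells and 4.73, 4.47 and 4.90 in parental cells. Both probe sets of AK3 kept the groups apart. DMAC1 had 44.95, 40.0 and 41.7 array medians in resistant cells, against 23.6, 26.8 and 24.6 in parental cells by 224879_at. The spread within groups was the lowest of the 10 genes, with a pooled SD of 0.0903 on the log2 scale, and the log2 difference was 0.76 (SE 0.195). The second probe set of DMAC1, 224860_at, averaged below 1 array median, and its log2 difference was 1.18 (SE 0.614).

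ERMP1 is a peptidase of the endoplasmic reticulum, and RIC1 forms, with RGP1, an exchange factor for the Golgi GTPase RAB6A. ERMP1 had 25.3, 20.9 and 20.5 array medians in resistant cells, against 17.8, 16.9 and 10.1 in parental cells by 222603_at. The groups did not overlap, parental 3 was the lowest array, and the log2 difference was 0.61 (SE 0.287). By 218342_s_at the groups of ERMP1 overlapped, with 15.03, 13.7 and 11.4 array medians in resistant cells and 14.3, 8.60 and 9.64 in parental cells, and the log2 difference was 0.33 (SE 0.271).

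RIC1 had 6.51, 6.23 and 6.97 array medians in resistant cells, against 2.69, 4.87 and 3.496 in parental cells by 226221_at. The groups did not overlap, and the log2 difference was 0.88 (SE 0.271). Probe set 226222_at had a log2 difference of 1.31 (SE 0.287), with 4.38 to 5.85 array medians in resistant cells and 1.51 to 2.67 in parental cells, again without overlap. The dimmer 223826_s_at of RIC1 had a log2 difference of 0.38 (SE 0.298) with overlapping groups, and 223825_at, which averaged below 1 array median, had 1.10 (SE 0.571).

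Of the 25 probe sets, 19 averaged at least 1 array median and 6 did not. All 19 had a higher mean log2 level in resistant cells, and in 15 of them the groups did not overlap. Of the 6 dim probe sets 4 were higher and 2, both of KDM4C, were lower. The level filter used the mean of all 6 arrays, so it is not independent of the difference. Probe set 235787_at of CDC37L1, counted among the 19 and the 15, averaged 1.79 array medians in resistant cells and 0.463 in parental cells. By representative probe set, groups did not overlap with resistant cells higher in 9 of the 10 genes and in 16.1% of all tested genes. With resistant cells lower, they did not overlap in 14.2% of all tested genes. No such share was taken over all probe sets. A probe set was called where its adjusted p in limma, over all 26692 tested, was under 0.05 and its fold was at least 2. By this rule 1.20% of all probe sets were called higher and 1.14% lower, or 1.30% and 1.47% of all genes by representative probe set, and 0 of the 19 probe sets and 0 of the 10 genes were called. At an unadjusted p under 0.05 in limma, 13 of the 19 probe sets and 7 of the 10 genes passed, where 18.7% of all probe sets and 20.0% of all genes passed in either direction. By the test named in the methods 0 of the 10 genes were called, where 126 of all 26692 probe sets were. Since the genes were taken on this contrast, nothing is read from these shares.

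**Figure D2:**
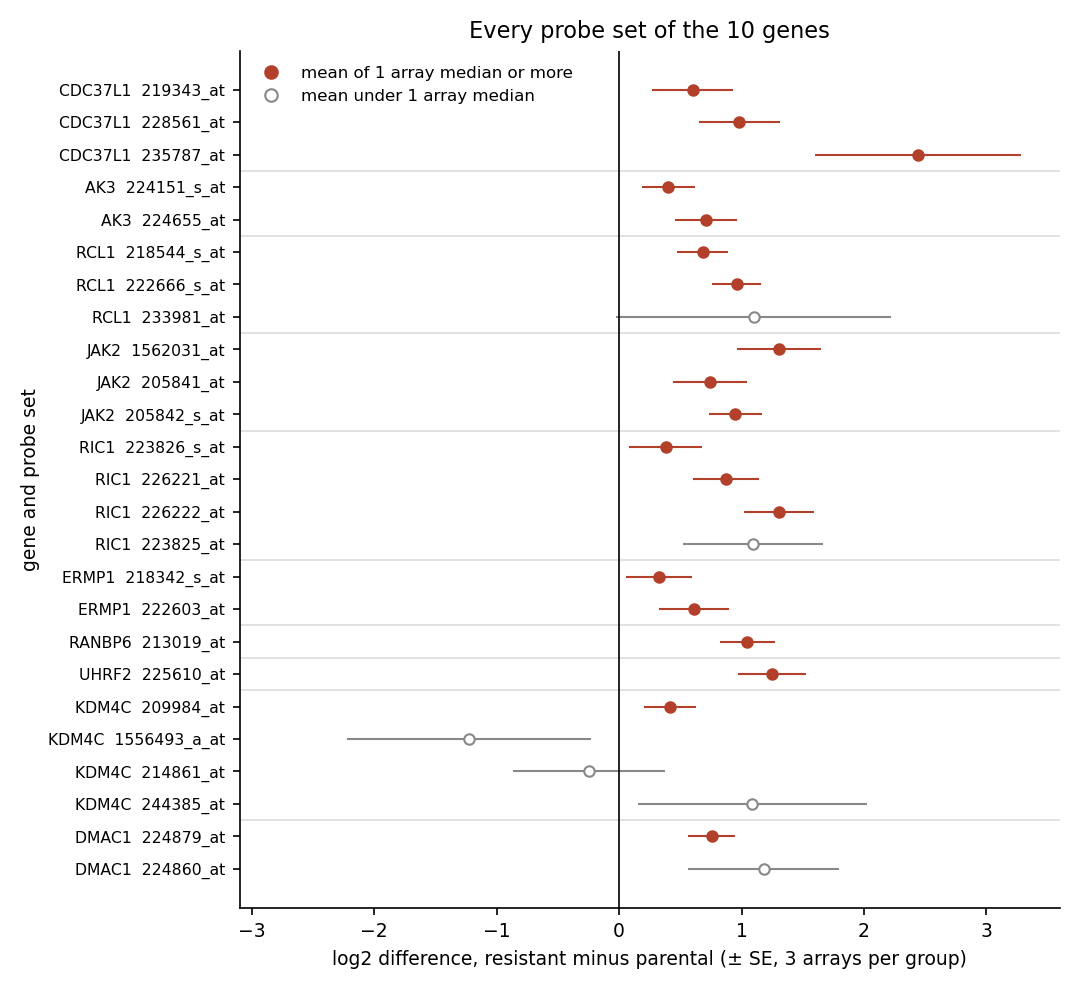
Log2 difference (resistant minus parental, ± SE, 3 arrays per group) of each of the 25 probe sets, with genes in their order on 9p. The 19 filled points averaged at least 1 array median and all lie to the right of 0, whereas the 6 open points averaged less and 2 of them, both of KDM4C, lie to the left.

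The size of the difference was much the same in each resistant array. Measured against the mean parental log2 level of each gene, the median deviation of the 10 genes was 0.86 in resistant 1, 0.85 in resistant 2 and 0.81 in resistant 3, and all 10 genes were above their parental mean in each of these arrays. The same median over all tested genes was 0.16, -0.07 and 0.01, so relative to all genes the shift of the 10 varied more between these arrays. In parental 1, 2 and 3 the median deviations were 0.14, 0.04 and -0.18, with 6, 7 and 2 genes above the mean. The order of the genes was not fixed between resistant arrays. UHRF2 lay highest in resistant 1 and 3, at 1.48 and 1.37, but JAK2 lay highest in resistant 2, at 0.97. CDC37L1 was lowest in resistant 3, at 0.07.

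**Figure D3:**
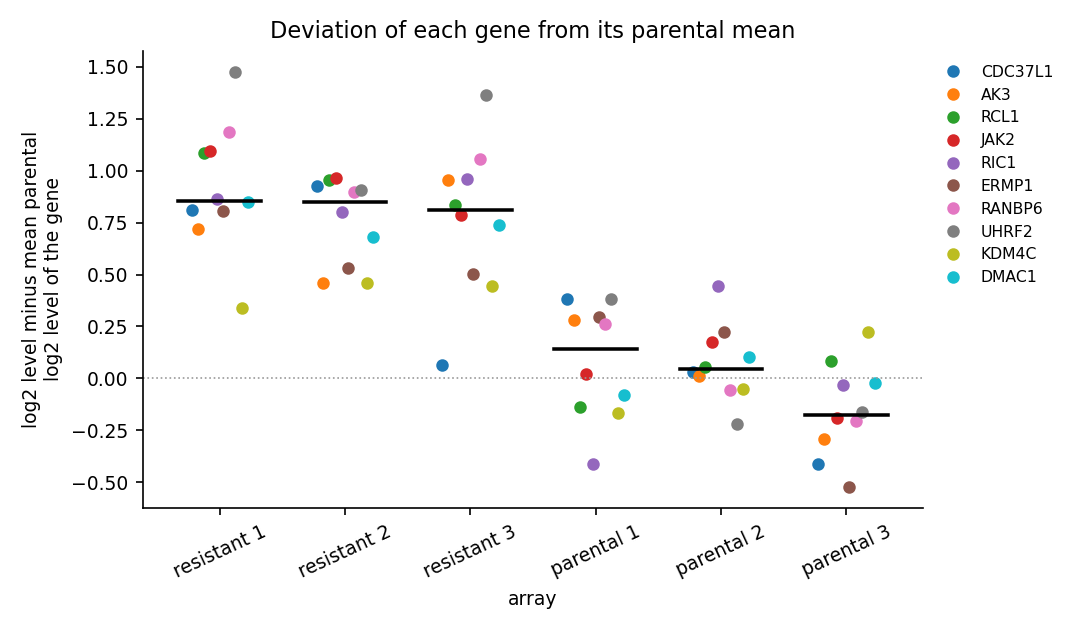
Deviation of each gene from its mean parental log2 level in the 3 resistant and 3 parental arrays, with 1 coloured point per gene and a bar at the median of the 10 genes. The medians are 0.81 to 0.86 in the resistant arrays and -0.18 to 0.14 in the parental arrays.

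Parental 1 stood apart from the other parental arrays, with Spearman correlations over probe sets of 0.899 and 0.889 with parental 2 and 3, which correlated at 0.969. Its summed signal of 8 epithelial markers was 119.9 array medians, where the summed range was 21.8 to 43.5 in resistant cells and 38.7 to 119.9 in parental cells. KRT19 made up 83.7 of the 119.9. The adhesion gene CDH1 had 21.8 array medians in parental 1, against 0.717 to 2.01 in the other parental arrays, and EPCAM had 9.53, against 0.307 to 1.19. The markers did not move together, since VIL1 and KRT7 were lower in parental 1. They had 0.455 and 2.36 there, against 1.20 to 1.21 and 3.18 to 3.20 in the other parental arrays. Without parental 1 the median log2 difference of the 10 genes was 0.82 and that of JAK2 0.96, so these values were as large without that array. The number of members called was then 2, UHRF2 and RANBP6. Of all probe sets, 633 were then called higher and 447 lower, against 319 and 303 with all 6 arrays. The 10 erythroid markers named on the array all lay above the median in all 6 arrays, with sums of 1239 to 1525 array medians in resistant cells and 1756 to 1851 in parental cells, and of 1165 to 1451 and 1171 to 1289 without the embryonic globin HBE1. The 4 B cell and 6 T cell markers summed to at most 5.08 array medians in resistant cells and 4.84 in parental cells, and the 6 fibroblast markers to 7.03 to 9.89 in resistant cells and 7.35 to 8.44 in parental cells.

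Other tested genes of the short arm were then placed in gene order with the 10, in order to see what lay between and beside them. Between the first and the last member the array named 22 genes, of which 14 were tested. GLDC, the decarboxylase of the mitochondrial glycine cleavage system around which the genes were picked, had 14.9, 13.3 and 16.0 array medians in resistant cells, against 0.413, 0.733 and 0.260 in parental cells. Its log2 difference was 5.10 (SE 0.390; limma adjusted p = 0.00310), where its neighbours UHRF2 and KDM4C had 1.25 and 0.42. The parental levels lay in the range of background, so the size of the GLDC difference is uncertain, and with a pseudocount of 1 array median it was 3.43. As the anchor of the selection, GLDC gives no independent evidence.

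The other 3 tested genes between members were not part of the selection. PLGRKT, a plasminogen receptor and the next tested gene after JAK2, had 10.4, 9.74 and 8.13 array medians in resistant cells, against 6.45, 5.61 and 4.31 in parental cells, and BRD10, a bromodomain gene, had 6.04, 4.07 and 8.12 in resistant cells, against 3.31, 1.84 and 2.57 in parental cells. Both were separate between groups, with log2 differences of 0.80 (SE 0.243) and 1.22 (SE 0.349), and neither passed the test (limma adjusted p = 0.158 for PLGRKT and 0.139 for BRD10). CD274, which encodes the immune checkpoint ligand PD-L1, had 0.366, 1.60 and 1.59 array medians in resistant cells, against 0.944, 1.21 and 1.39 in parental cells, and its groups overlapped (log2 difference -0.26, SE 0.596; limma adjusted p = 0.850; 0.45 without resistant 1). The 8 genes that averaged too little to be tested were MLANA, INSL4, INSL6, IL33, RLN1, RLN2, PDCD1LG2 and TPD52L3, hormone, cytokine and tissue-restricted genes.

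Before the first member, towards the end of the arm, 10 tested genes were present and 6 had a higher mean level in resistant cells. SMARCA2, an ATPase of the SWI/SNF chromatin remodelling complex, was the only called gene among them. It rose to 8.78, 9.70 and 12.2 array medians in resistant cells, against 4.15, 3.98 and 2.72 in parental cells (log2 difference 1.51, SE 0.263; limma adjusted p = 0.0422). The call was lost on leaving out any array but parental 1, with adjusted p from 0.103 to 0.146, and the suffix of its probe set, _x_at, marks probes that can match other transcripts. The 4 outermost genes, FOXD4, DOCK8, DOCK8-AS1 and KANK1, had a median log2 difference of -0.33. KANK1 counted as higher through parental 1, where it had 0.217 array medians. It had 10.5 and 9.18 in parental 2 and 3, and 8.10 to 8.71 in resistant cells.

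After the last member, towards the centromere, 13 of 15 tested genes were higher and 0 were called. The 8 nearest, MPDZ, NFIB, ZDHHC21, SNAPC3, PSIP1, RRAGA, HAUS6 and PLIN2, all had higher means in resistant cells, with log2 differences of 0.74 to 1.90, and in 5 of them the groups did not overlap. PLIN2, a coat protein of lipid droplets, had 27.6, 27.4 and 26.4 array medians in resistant cells, against 16.1, 12.9 and 13.1 in parental cells (log2 difference 0.96, SE 0.204; limma adjusted p = 0.0744). MPDZ had the largest difference of the 8 and overlapping groups, with 4.74, 5.57 and 5.03 array medians in resistant cells and 4.87, 0.557 and 0.945 in parental cells. The next 7 genes, DENND4C to IFT74, had log2 differences of -0.71 to 0.41, a median of 0.22, and overlapping groups throughout.

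From SMARCA2 to PLIN2, 17 tested genes were neither members nor GLDC. Of these, 15 were higher in resistant cells, and the median log2 difference was 0.98, against 0.82 for the 10 members and 0.03 for the 444 tested genes of chromosome 9 outside the 39 that were placed in order, of which 235 were higher. These ends, and PLIN2 and MPDZ as examples, were chosen after the values had been seen, so the counts are a description. Among the 444 genes 8 were called higher and 3 lower.

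**Figure D4:**
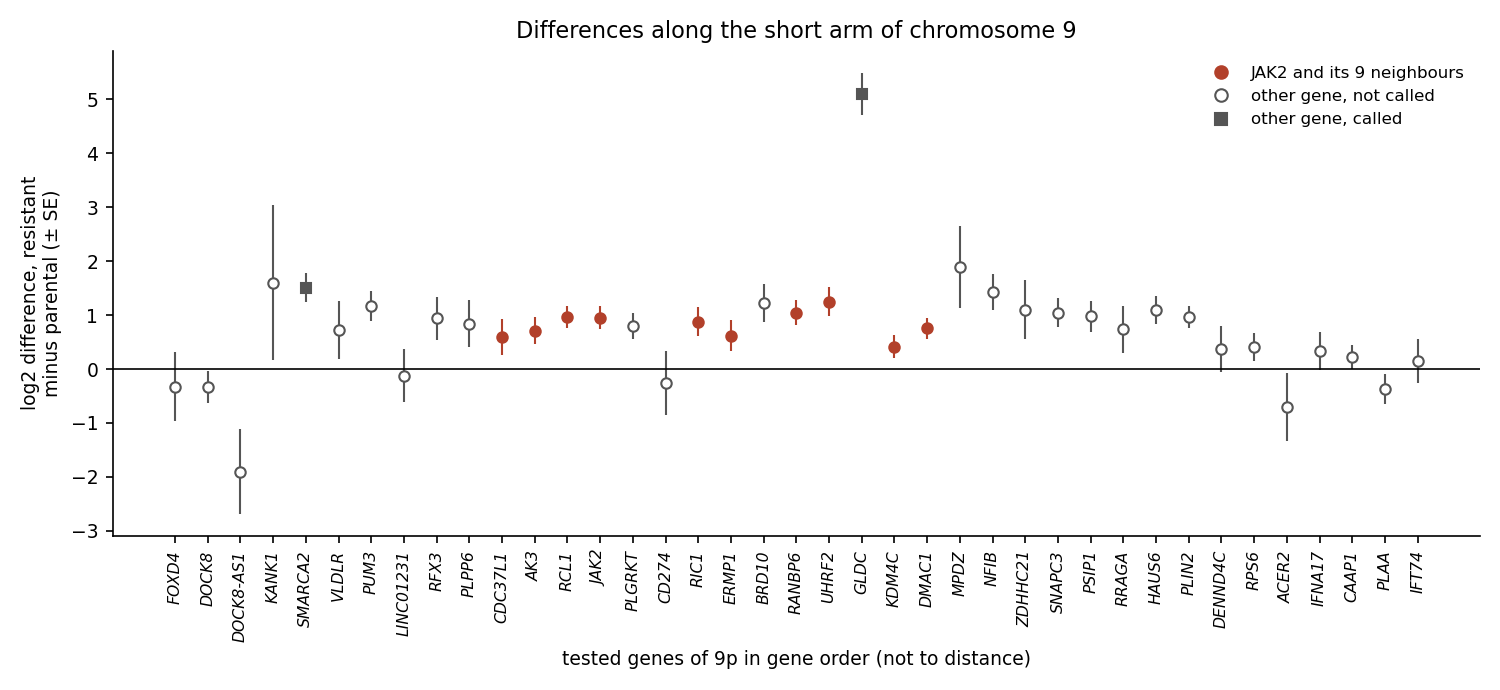
Log2 difference (resistant minus parental, ± SE) of the 39 tested genes in and around the stretch, placed by gene order and not by distance, with JAK2 and its neighbours in red. From SMARCA2 to PLIN2, ends chosen after the values had been seen, 15 of the 17 points that are neither members nor GLDC lie above 0. GLDC at 5.10 and SMARCA2 at 1.51 are the called genes (squares), while the genes from DENND4C on lie between -0.71 and 0.41.

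Most tested genes of the pathway in which JAK2 acts had a lower mean log2 level in resistant cells, unlike JAK2, but nearly none passed the test. Of 67 genes listed for the pathway, 51 were tested in limma, 1 was called higher in resistant cells and 0 lower, and 18 lay above 0 and 33 below, with a median log2 difference of -0.23. At an unadjusted p under 0.05, 1 was higher and 16 were lower. Of all 11810 genes 2362, or 20.0%, passed in either direction, and 1185 of these were higher in resistant cells. Of all genes 51.4% lay above 0.

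Of the kinases related to JAK2, JAK1 had 42.7, 33.7 and 39.1 array medians in resistant cells, against 80.3, 60.4 and 53.1 in parental cells. The groups did not overlap, but the log2 difference of -0.73 (SE 0.244) missed the threshold (limma adjusted p = 0.183). JAK1 was highest in parental 1, and without that array its log2 difference was -0.56. JAK3 and TYK2 differed by -0.23 (SE 0.331) and less than 0.01 on the log2 scale, with overlapping groups.

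Of the 17 receptors listed, 6 were tested, with a median log2 difference of -0.72, 5 of them below 0 and 0 called. The largest differences were those of IL6ST, the shared signal chain of interleukin-6 type cytokines (-1.11; limma adjusted p = 0.176), IFNGR2, a chain of the interferon gamma receptor (-1.08; adjusted p = 0.104), and the granulocyte growth factor receptor CSF3R (-0.87; adjusted p = 0.164). IFNGR2 had 25.1, 21.2 and 14.9 array medians in resistant cells, against 37.4, 49.2 and 41.2 in parental cells, so the groups were apart. Without parental 1 the log2 differences of IL6ST, IFNGR2 and CSF3R were -0.80, -1.17 and -0.87.

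Among the 5 STAT factors tested, 0 were called. STAT3 had 25.7, 20.6 and 15.8 array medians in resistant cells, against 59.1, 43.1 and 34.5 in parental cells, without overlap (log2 difference -1.13, SE 0.301; limma adjusted p = 0.120). STAT5A had a log2 difference of -0.77 (SE 0.257; adjusted p = 0.182) and STAT4 of 0.52 (SE 0.618; adjusted p = 0.692), the levels of STAT4 being near 1 array median and its difference -0.15 without parental 3. STAT3 and STAT5A were highest in parental 1, and without that array their log2 differences were -0.92 and -0.55.

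Of the 18 tested genes listed as negative regulators of JAK2 signalling, 9 lay above 0 and 9 below. SOCS7, of the suppressor of cytokine signalling family, was the called gene. It rose to 14.9, 12.95 and 16.0 array medians in resistant cells, against 6.05, 6.74 and 4.43 in parental cells (log2 difference 1.37, SE 0.245; limma adjusted p = 0.0464), and the call was lost on leaving out any of the 6 arrays, with adjusted p from 0.0520 to 0.139. Its relatives SOCS3 and CISH had values in the other direction without passing the test, with log2 differences of -1.79 (adjusted p = 0.224) and -1.03 (adjusted p = 0.145). The value of SOCS3 was -0.98 without resistant 3 and -0.82 as the mean over its probe sets. PTPRC, the leukocyte phosphatase CD45, had 6.504, 7.62 and 9.60 array medians in resistant cells, against 60.2, 0.374 and 0.402 in parental cells. The call of PTPRC turned on parental 1, with an adjusted p of 0.631 in limma with that array and of 0.00234 without it, where the other parental levels lay in the range of background and leave the size of the difference uncertain.

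The 9 adaptors of JAK2 lay close to 0, with a median of -0.09 and 0 called, and GAB1, GAB2 and SH2B1 had the largest differences, 0.52, 0.51 and 0.47. GAB1 was lowest in parental 1, and without that array its log2 difference was -0.09. Of 10 tested genes known as targets of STAT5, 8 lay below 0, 0 were called and the median log2 difference was -0.88. The list does not separate targets that STAT5 raises from those it lowers, so these values give no direction of STAT5 activity. BCL6, a transcriptional repressor, had 1.09, 0.968 and 0.382 array medians in resistant cells, against 9.76, 2.65 and 1.64 in parental cells (-2.24; limma adjusted p = 0.176). CDKN1A, an inhibitor of cyclin-dependent kinases, had 3.18, 2.01 and 2.89 in resistant cells, against 14.2, 5.60 and 6.13 in parental cells (-1.57; adjusted p = 0.115), and ID1 had a log2 difference of -1.21 (adjusted p = 0.118). BCL6 and CDKN1A were highest in parental 1, and without that array their log2 differences were -1.50 (adjusted p = 0.180) and -1.15 (adjusted p = 0.0889).

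**Figure D5:**
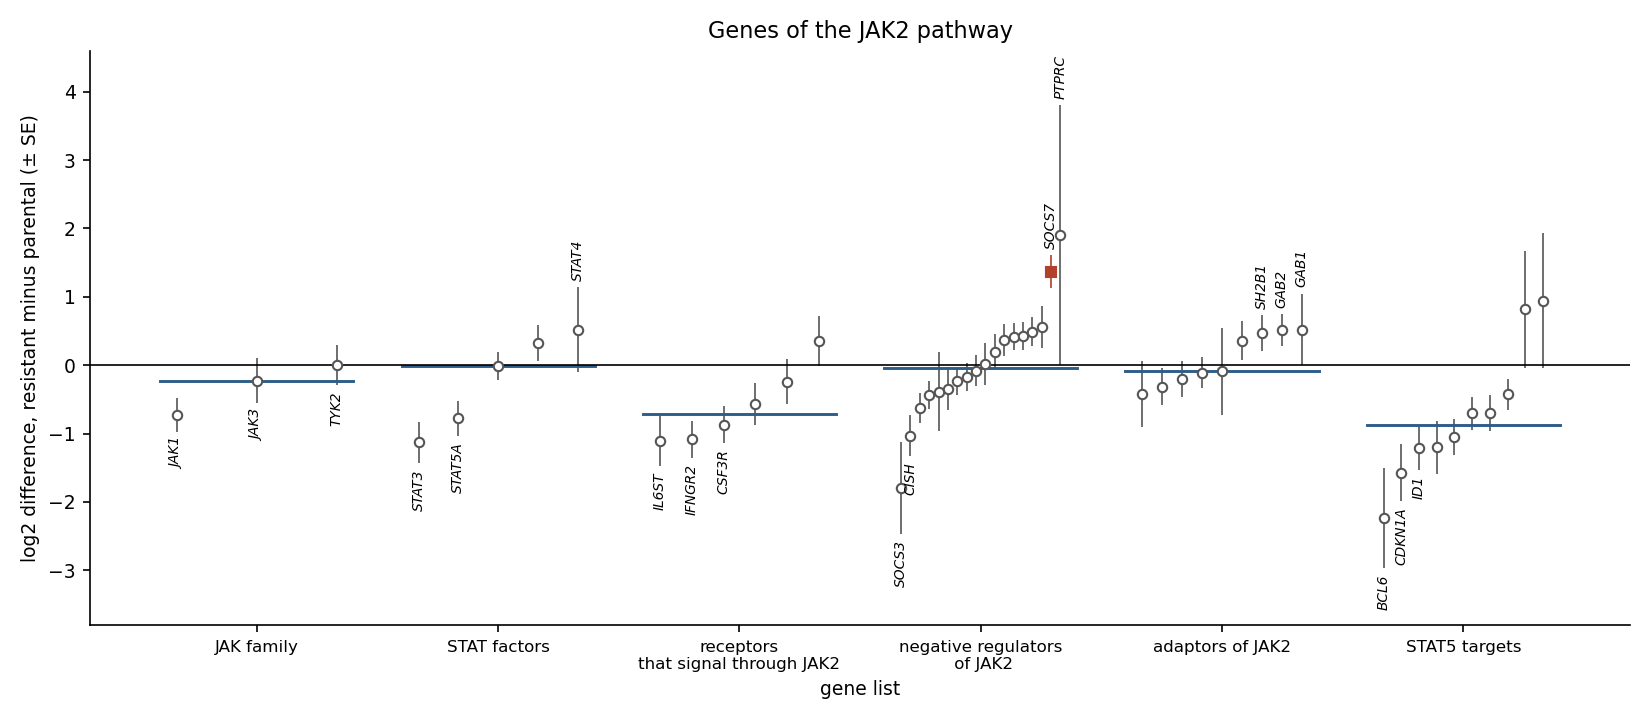
Log2 difference (resistant minus parental, ± SE) of the 51 tested genes of the JAK2 pathway by list, with a blue bar at the median of each list. SOCS7, at 1.37, is the called gene (red square), and the medians of the receptors and of the STAT5 targets are -0.72 and -0.88.

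Relatives and partners of the neighbours were looked at in the same way. Of 24 tested, 18 lay above 0, the median log2 difference was 0.16, and 1 was called, RAB6B, a relative of the GTPase on which RIC1 acts. It fell to 2.27, 2.58 and 3.56 array medians in resistant cells, against 7.00, 9.62 and 7.76 in parental cells (log2 difference -1.55, SE 0.262; limma adjusted p = 0.0397), and the call was lost on leaving out any array but parental 1, with adjusted p from 0.0534 to 0.151. UTP14A, a ribosome assembly factor listed beside RCL1, had 40.8, 43.4 and 60.5 array medians in resistant cells, against 24.1, 16.4 and 16.9 in parental cells, without overlap, and missed the threshold (1.34, SE 0.271; adjusted p = 0.0661). The adenylate kinase AK1 had a log2 difference of -0.81 (adjusted p = 0.348) and the demethylase KDM4B of 0.66 (adjusted p = 0.369), where AK3 and KDM4C had 0.71 and 0.42. Both signs depended on the probe set, for without _x_at and _s_at probe sets AK1 had 0.14 and KDM4B -0.62.

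The profile of JAK2 over the 6 arrays was most like those of RPAIN, THOP1, BABAM2, ASS1 and GTF3C3, with Pearson correlations of 0.998, 0.997, 0.996, 0.993 and 0.993 on the log2 scale among 11809 genes. All 5 were higher in each resistant array than in any parental array, with log2 differences of 0.78, 1.20, 0.98, 2.76 and 0.89. Among the neighbours the correlation with JAK2 was 0.974 for DMAC1, 0.960 for RCL1 and 0.949 for RANBP6, ranks 53, 115 and 179 of all genes, and it was lowest for CDC37L1 and KDM4C, at 0.776 and 0.730. A correlation of 0.9 or more was found for 536 genes, or 4.54%. The 6 points form 2 groups and share their arrays, so that the difference between groups carries most of such a value, and no test was made.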

How the data were processed

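Total RNA of 3 resistant and 3 parental samples was hybridised to HG-U133 Plus 2.0 arrays. The deposited values were intensities, 1 linear MAS5 signal for each probe set (the authors' version of MAS5 is not given in the sources used here). The study's methods divide them by the 50th percentile of each array, a step not present in the deposited intensities, since array medians differed (10.2 to 12.5 in resistant and 12.7 to 14.3 in parental arrays). Each intensity was therefore divided by its array median, values under 0.01 were set to 0.01, and log2 was taken with no pseudocount. Groups were taken from the labels. The methods' filter on control strength could not be applied and was replaced by a mean of at least 1 array median. The 62 control probe sets were left out.

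limma 3.58.1 in R 4.3.3 (lmFit and eBayes, two-sided, Benjamini-Hochberg over 26692 probe sets) gave differences, standard errors and adjusted p-values, with calls at an adjusted p under 0.05 and 2-fold. Each gene was represented by the brightest (by mean log2) of its tested probe sets, of those that name 1 gene. Folds are ratios of geometric means, and errors of levels are SD over 3 arrays. The fit was tested on simulated data. RefSeq (GRCh38.p14) gave gene order and promoters, and no build was given for the array values. Precision is limited by the number of arrays.

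The members and lists were chosen with earlier results of these data known. Genes were named by rule: all members, called genes and up to 3 with the largest differences in each list, the 5 genes most like JAK2, and, along 9p, called genes and those between members. The alternatives were other scalings, level filters and pseudocounts, a trended and robust prior, the methods' t-test, a replicate block, other choices of probe sets, and leaving out each array. Some listed genes are not reported here.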

Additional observations from a re-analysis of the deposited data

How the results depend on the processing

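All 10 members stayed higher in resistant cells under each alternative tried, with log2 differences of 0.22 to 1.44 in 179 values, RCL1 being untested without _x_at and _s_at probe sets. The members' median, 0.82, was 0.61 with values as deposited, where the median of all genes was -0.18, against 0.02 after scaling, and 0.79 to 0.90 on leaving out each array. JAK2, at 0.95, was 0.75 with values as deposited and 0.74 without _x_at and _s_at probe sets. UHRF2 and RANBP6 were called (2 members) at a filter of 2 array medians, with an intensity trend and robust prior, or without parental 1, and UHRF2 (1 member) with a pseudocount of 1. In each of these settings more of all probe sets were called as well, as given below.

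Of all probe sets, 319 were called higher and 303 lower, or 51.3% higher. There were 210 and 321 (39.5% higher) as deposited, 97 and 77 with no level filter, 599 and 592 with a pseudocount of 1, 563 and 570 with the trend and robust prior, 82 and 44 by the methods' t-test, and 204 and 190 without _x_at and _s_at probe sets. A pseudocount of 0.25 gave 462 higher and 455 lower, and a filter of 2 array medians gave 465 and 445. Leaving out each array gave 103 to 633 higher and 79 to 447 lower, both highest without parental 1. Replicate numbers are shared by the groups, and the labels do not say whether they pair samples. Deviations of same-numbered arrays correlated at -0.007, -0.025 and -0.006, which cannot settle whether such samples were handled together. With the replicate block, 133 were higher and 136 lower.

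Of the listed genes, 1 was called higher and 1 lower. None were called higher (0) as deposited, with no filter, by the t-test, with the block or with the mean over probe sets, and 2 at a filter of 2, pseudocounts of 1 and 0.25 or the trend. Called lower were 0 with quantile normalization, 75th percentile scaling, no filter, the t-test or the block, 4 with a pseudocount of 1 and 6 with the trend. Leaving out each array gave 0 to 2 in either direction. Along 9p, 2 non-members were called, 4 with a pseudocount of 1 or the trend, 1 as deposited, with 75th percentile scaling, no filter, the block or without _x_at and _s_at probe sets, 0 by the t-test (GLDC, adjusted p = 0.0527), and 1 to 5 on leaving out each array. The median of non-members without GLDC, 0.77, was 0.57 as deposited, 0.58 with a pseudocount of 1, 0.45 without _x_at and _s_at probe sets, 0.47 without parental 3 and 0.97 without parental 1. The causes were not tested.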
